A study of Mus musculus with 12 samples.

Results

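The genes described here are Dppa2, Dppa3, Dppa4, Dppa5a, Utf1, Zscan4c, Zscan4d and Gm8300, taken by symbol from the gene count files of 6 libraries. They are 8 of 52535 genes in the files, and all 8 were among the 14946 genes that passed the filter on low counts. RNA sequencing was done on E14 mouse embryonic stem cells grown with serum, LIF and the kinase inhibitor mix 2i, after depletion of ribosomal RNA. The labels give 2 libraries of wild type (WT), 2 of clone 1 and 2 of clone 2 of a Bcat1 knockout, so each knockout group is 1 clone and all groups share line and medium. A further 6 samples of a differentiation time course were not analysed here. Whether the replicates of a group were grown separately is not stated in the labels. The p-values thus reflect only how far these libraries spread, and that spread may be technical.

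Embryonic stem cell cultures hold a rare, short-lived state that resembles the 2-cell embryo (2C-like state), in which Zscan4 genes and genes driven by endogenous retroviral repeats are switched on. DPPA2 and DPPA4 are chromatin proteins that form a heterodimer and are known activators of this programme through the transcription factor DUX. DPPA3, DPPA5A and UTF1 are, by contrast, products of pluripotent and germ line cells, and are made by stem cells outside the 2C-like state as well.

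The gene counts of a library totalled between 11976149 and 13923262. All 9 embryonic stem cell markers (Pou5f1, Sox2, Nanog and others) were detected in every library, with a summed level of 5164 to 5649 CPM (counts scaled to library size, normalised by TMM). The targeted gene, Bcat1, which encodes a branched-chain aminotransferase, had a mean CPM of 608 ± 8.35 in WT (SD, n = 2), 639 ± 31.9 for clone 1, and 581 ± 2.38 for clone 2. Its RNA did not differ by the test between the libraries labelled knockout and WT (adjusted p = 0.977). Where the edit lies is not given in the sources used here, so counts over the whole gene check no label. Clone 1 replicates differed more from each other than other pairs did, with a chi-square per gene of 9.66 against 3.78 in WT and 3.45 in clone 2.

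The Zscan4 genes are similar copies in 1 cluster on chromosome 7, and how far they are alike differs between copies. The stretch before the annotated start of 4 copies is shown to make that likeness visible, from the RefSeq promoter table (GRCm38.p6), 5′ to 3′ on the strand of the gene, with a TATAAA box in capitals. The windows are chr7:11005591-11005726 (plus strand) for Zscan4c, chr7:11166178-11166313 (minus) for Zscan4d, chr7:11397784-11397914 (plus) for Zscan4f and chr7:10905051-10905181 (minus) for Zscan4b.
Zscan4c: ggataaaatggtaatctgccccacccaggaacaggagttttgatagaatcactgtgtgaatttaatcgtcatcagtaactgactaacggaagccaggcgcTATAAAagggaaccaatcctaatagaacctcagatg
Zscan4d: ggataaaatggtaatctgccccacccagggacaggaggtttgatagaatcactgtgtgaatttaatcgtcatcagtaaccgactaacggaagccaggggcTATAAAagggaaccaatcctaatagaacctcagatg
Zscan4f: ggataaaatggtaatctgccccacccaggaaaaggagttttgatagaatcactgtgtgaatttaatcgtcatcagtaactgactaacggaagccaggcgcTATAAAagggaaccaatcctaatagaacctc
Zscan4b: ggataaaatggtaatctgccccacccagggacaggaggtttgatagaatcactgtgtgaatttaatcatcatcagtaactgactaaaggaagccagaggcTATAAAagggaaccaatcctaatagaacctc
Zscan4c and Zscan4d differed at 4 of 136 aligned bases, Zscan4c and Zscan4f at 1 of 131, and Zscan4c and Zscan4b at 6 of 131. The box lies 54 bases before the RefSeq start of Zscan4c and 65 before that of Zscan4d. The value of 65 depends on the annotation, since GENCODE M21 starts Zscan4d further upstream, at chr7:11166159. TATAAA, searched on both strands after these sequences had been seen, is present in 13.6% of 32851 RefSeq promoters of 300 bases. None of CACGTG (the E-box bound by MAX and MGA, in 7.15% of promoters), TTCCCGC (an E2F site, 4.60%) or ATGCAAAT (the POU5F1 octamer, 1.74%) occurs in the promoters of Utf1 or of these 4 Zscan4 genes. The Utf1 promoter holds 62.0% GC and a CpG content of 0.615 observed over expected, against medians of 52.7% and 0.384. Zscan4c and Zscan4d, at 0.242 and 0.176, lie below that median. The promoter table held only these 3 of the 8 genes.

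Gene positions are given on GRCm38 from GENCODE M21, where all 8 genes are protein coding and none overlaps another gene. In the transcripts, Zscan4c and Zscan4d were 97.1% identical over their length, against 78.3% for Zscan4c and Zscan4f, 76.0% with Zscan4b and 73.2% with Zscan4e. Gaps counted as differences in these values. The annotated transcripts of Zscan4f, Zscan4b and Zscan4e, at 1829, 1779 and 1745 bases, are shorter than the 2276 of Zscan4c. The lower values thus include that difference in length and do not give the likeness of the aligned parts. Of all 100-base windows of the Zscan4c transcript, 72.8% occur word for word in another gene, against 29.6% for Zscan4d, 23.9% for Dppa2, 16.8% for Dppa4, 10.8% for Gm8300 and 3.08% for Dppa5a. Dppa3 and Utf1 had no such window. Reads in shared windows can be split between copies or lost as ambiguous or multiply aligned, and the strand setting of the counting is not given in the sources used here. Counts of Zscan4c, Zscan4d and Gm8300 are therefore uncertain as values of single copies. For Dppa2 the copy Gm9788 had 50 and 49 counts in WT, 35 and 50 for clone 1, and 32 and 19 for clone 2. Dppa4 shares its windows mainly with Gm14058, which had 35 to 54 counts in every library. Reads set aside as aligned in several places are in none of these counts. These counts therefore do not show how many reads of Dppa2 or Dppa4 were lost.

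Per length, the 8 genes spanned a wide range of levels. In reads per kilobase of exon, scaled to library size (RPKM, computed from the counts), WT stood at 2867 ± 53.7 for Dppa5a, 156.3 ± 1.21 for Utf1, 49.7 ± 2.97 for Dppa4, 20.4 ± 0.454 for Dppa2 and 1.52 ± 0.312 for Dppa3. Gm8300 (0.0798), Zscan4d (0.0170) and Zscan4c (0) had 0 to 3 counts a WT library, and their order cannot be told apart from counting error. In clone 1 the first 4 kept that order, and Dppa3 at 0.879 ± 0.392 and Gm8300 at 0.774 ± 0.342 lay within each other's spread. In clone 2 Utf1, at 43.6 ± 6.40, lay within its spread of Dppa4, at 41.7 ± 0.0170. Over the longest transcript in place of all exons the order of these 2 genes turned, with Dppa4 at 46.8 and Utf1 at 43.6.

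Against WT, the libraries labelled knockout had lower Dppa2 and Utf1 RNA in both clones. Dppa4 and Dppa5a were also under WT in every such library, passed the test in clone 1 alone, and did not differ by the test between the clones. Zscan4c, Zscan4d and Gm8300 were higher in clone 1 and not by the test in clone 2, and Dppa3 was higher in clone 2 and not by the test in clone 1. A gene is called higher or lower here at an adjusted p under 0.05 by the quasi-likelihood test of edgeR, after Benjamini-Hochberg adjustment over all genes tested. Changes without another unit are log2 fold changes, and a value after one in brackets is its adjusted p. With both clones as 1 genotype, 0 of 8 were called higher and 2 lower, where 4.25% and 2.11% of all genes were called. In clone 1 against WT, 3 were higher and 4 lower (12.4% and 9.53% of all genes). The 3 higher genes, Zscan4c, Zscan4d and Gm8300, passed the filter on low counts only through clone 1, since 5 of the 8 genes pass it with the WT and clone 2 libraries alone, so that their being higher there was fixed in large part by the filter. For clone 2 against WT the counts were 1 and 2 (10.1% and 7.81%), and for clone 2 against clone 1 they were 1 and 4 (6.62% and 7.71%). Of the 4 lower there, Zscan4d and Gm8300 entered the test only through clone 1, so the filter favoured that direction too. Counts of listed genes and of neighbours below are to be set against the shares of all genes in these comparisons. The median log2 fold changes of the 8 genes were 0.29, -0.27, -0.22 and -0.80 in these comparisons, with medians over all genes within 0.00447 of 0. Over both clones Zscan4c, Zscan4d and Gm8300 did not pass (adjusted p = 0.151, 0.235 and 0.390), though Zscan4c did without the filter (0.0323) and with the averaged clone contrasts (0.0449). Both clones were set against the same WT libraries, so the comparisons with WT are not independent of each other. In bulk RNA, fewer cells of a type and less RNA per cell cannot be told apart.

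Dppa2 (chr16:48303908-48319723, plus strand) had 50.7 and 49.1 CPM in WT, 36.3 and 30.8 for clone 1, and 21.2 and 24.2 for clone 2. All 4 libraries labelled knockout lay under both WT libraries, clone 2 was lowest, and no groups overlapped. Dppa2 fell by 0.83 ± 0.18 (SE) on the log2 scale over both clones (adjusted p = 0.0291). By clone the log2 fold change was -0.57 ± 0.12 in clone 1 (0.00233) and -1.14 ± 0.12 in clone 2 (5.64e-06). The difference of clone 2 from clone 1 was -0.56 ± 0.13 (0.00597). The joint call was lost without WT replicate 1 (adjusted p = 0.255) or WT replicate 2 (0.219), and the difference between clones without clone 2 replicate 1 (0.110). Both clone calls against WT held under all 13 alternatives.

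Dppa4 (chr16:48283733-48294237, plus strand), the partner of DPPA2, starts 20.2 kb from Dppa2 on the same strand. Its level was 86.1 and 79.1 CPM in WT, 66.6 and 67.0 for clone 1, and 69.2 and 69.2 for clone 2. Every library labelled knockout was under both WT libraries, and the clones lay close together. In clone 1 it fell by 0.31 ± 0.09 (adjusted p = 0.0258), while clone 2 at -0.25 ± 0.09 (0.0688) and both clones together at -0.28 ± 0.08 (0.0785) did not pass. The clones differed by 0.05 ± 0.09 (0.784). The call in clone 1 failed when WT replicate 1 (0.216) or 2 (0.0641), or replicate 1 (0.0541) or 2 (0.0548) of clone 2, was left out, with upper-quartile size factors (0.0601) and in a fit of those 4 libraries alone (0.0545). Clone 2 passed in its own such fit (0.0129) and without clone 1 replicate 1 (0.0149) or replicate 2 (0.0140). Morc1, the only other tested gene within 250 kb of the pair, was not called against WT, at 0.04 (0.891) for both clones together.

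**Figure D1:**
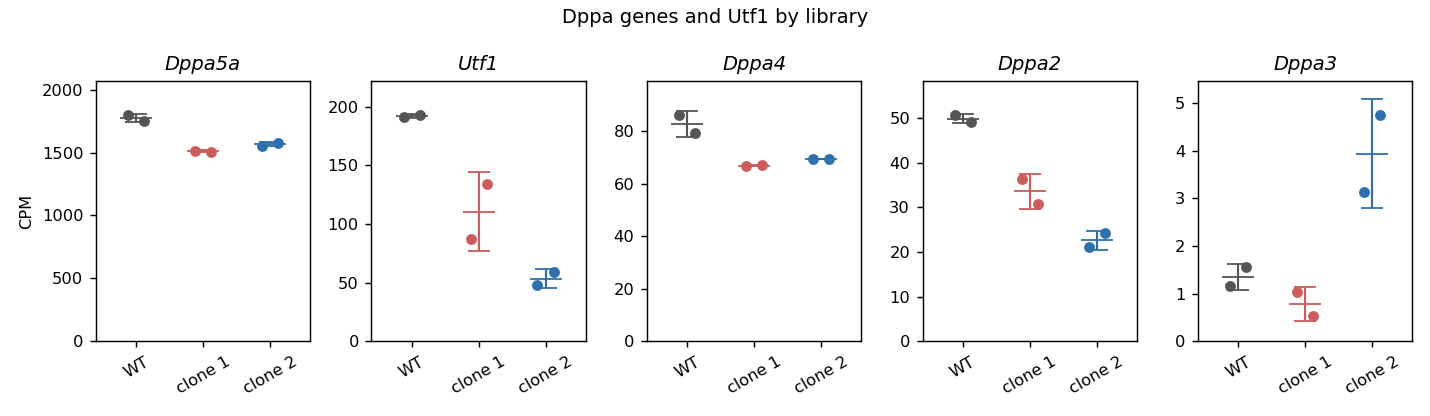
CPM of Dppa5a, Utf1, Dppa4, Dppa2 and Dppa3 by library, each on its own axis from 0, with points for libraries and bars for the mean ± SD of 2 libraries. Dppa2 and Utf1 step down from WT through clone 1 to clone 2, Dppa4 and Dppa5a sit a little under WT in both clones, and Dppa3 is highest in clone 2.

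The other listed activators of the 2C-like state were Tbx3, Nelfa and Duxf3. Tbx3, a T-box factor, fell in both clones, with -0.39 in clone 1 (adjusted p = 0.00527) and -0.44 in clone 2 (0.00244). Nelfa, a subunit of the negative elongation factor, was higher in clone 1 at 0.31 (0.0258), with 0.17 in clone 2 (0.261). Duxf3, the Dux gene in the files, had 0 counts in every library. Zero counts over a group allow a level of up to 0.113 CPM in WT, 0.117 in clone 1 and 0.123 in clone 2, which is what 3 counts over the group would give. These floors cover counting error only.

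Among 25 listed repressors of the state, all tested, 0 were higher and 1 lower over both clones. In clone 1 there were 2 higher and 5 lower genes, against 1 and 3 for clone 2. Over all genes tested, 12.4% were called higher and 9.53% lower in clone 1, and 10.1% and 7.81% in clone 2. Max, the partner of MGA in a Polycomb complex that silences germ line genes, fell by 0.43 over both clones (adjusted p = 0.0145), by 0.47 in clone 1 (9.69e-04) and by 0.38 in clone 2 (0.00517). Pcgf6, another subunit of that complex, fell by 0.44 in clone 1 (0.00439) and stood at -0.21 in clone 2 (0.153). Sumo2, the modifier attached to many heterochromatin proteins, fell by 0.32 in clone 1 (0.0104) and by 0.25 in clone 2 (0.0457). Smchd1, a chromatin protein of silenced loci, rose by 0.29 in clone 1 (0.0396), with 0.25 in clone 2 (0.0811). Outside the naming rule and chosen after their values were seen, Trim28 and Ehmt2 stood at -0.38 (0.00119) and -0.31 (0.0189) in clone 1. For clone 2 they stood at -0.09 (0.448) and -0.15 (0.285), and Trim28 was higher than in clone 1 by 0.29 (0.0118). E2f6, the other higher gene of clone 1, stood at 0.37 (0.0283). The median log2 fold change of the 25 was -0.04 in clone 1 and -0.01 in clone 2.

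Zscan4c (chr7:11005745-11010547, plus strand), a zinc finger gene that marks the 2C-like state and takes part in telomere lengthening, had 0 and 0 raw counts in WT, 10 and 11 for clone 1, and 4 and 0 for clone 2. Only clone 1 had counts in both libraries, and clone 2 overlapped WT. Zscan4c passed the filter on low counts only through clone 1, so its call there was fixed in large part by the filter. Set against a floor of 3 counts over WT, its level in clone 1 was at least 7.23-fold higher (adjusted p = 0.00853). In clone 2 it was at least 1.44-fold higher, from 1 library, and did not pass (0.202). Without clone 2 replicate 1 both clone 2 and WT were at 0, and with 1 WT library left out that bound was under 1, at 0.737 and 0.706. Clone 1 stood above clone 2 by a count ratio of 5.01 (95% interval of the counts 1.69 to 20.1), and that difference did not pass either (0.124). That ratio was 2.42 (0.818 to 9.71) without clone 2 replicate 2 and at least 3.45 without clone 2 replicate 1. The clone 1 call was lost without WT replicate 1 (0.0931) or replicate 2 (0.0929), where the lower bound fell to 3.70 and 3.54.

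Zscan4d (chr7:11161374-11166159, minus strand), 160.4 kb from Zscan4c, had 1 and 0 counts in WT, 10 and 10 for clone 1, and 1 and 1 for clone 2. Clone 1 was above every other library. The filter on low counts, which Zscan4d passed only through clone 1, favoured its calls over WT and over clone 2. The ratio of clone 1 to WT was 20.7 (3.31 to 857) with an adjusted p of 0.0110, and that of clone 1 to clone 2 was 9.55 (2.32 to 84.3) with 0.0363. Clone 2 and WT, at 2 and 1 counts, are both under the floor, and no ratio is given. The call in clone 1 was lost with DESeq2 (0.0927) and without WT replicate 1 (0.0634) or replicate 2 (0.142). The call between clones failed when WT replicate 1 (0.0705) or 2 (0.0668), or replicate 1 (0.230) or 2 (0.260) of clone 2, was left out, and without the filter (0.109). Without WT replicate 2 the ratio to WT was 10.1, and without WT replicate 1 it was at least 3.52.

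Gm8300 (chr12:87514316-87518266, plus strand), a predicted gene related to translation initiation factor eIF1A, had 1 and 3 counts in WT, 24 and 13 for clone 1, and 0 and 1 for clone 2. Clone 1 was again above all others, and clone 2 overlapped WT. As Gm8300, too, passed the filter only through clone 1, its calls over WT and over clone 2 are no support. Clone 1 exceeded WT by a ratio of 9.56 (3.43 to 36.9), with an adjusted p of 0.00699, and it exceeded clone 2 by 35.3 (5.96 to 1433), with 0.00305. Clone 2 stood at 0.271 of WT (0.00549 to 2.73), which did not pass (0.491), and rests on 1 against 4 counts. It was 0.524 without clone 2 replicate 1, and without either WT library or without clone 2 replicate 2 no ratio is given. The rise in clone 1 no longer passed without WT replicate 1 (0.116), WT replicate 2 (0.0544) or clone 1 replicate 1 (0.0907), and that between clones without clone 2 replicate 1 (0.0622). The ratio of clone 1 to WT was 18.7 without WT replicate 2, and that to clone 2 was 18.2 without clone 2 replicate 1 and at least 5.70 without replicate 2.

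**Figure D2:**
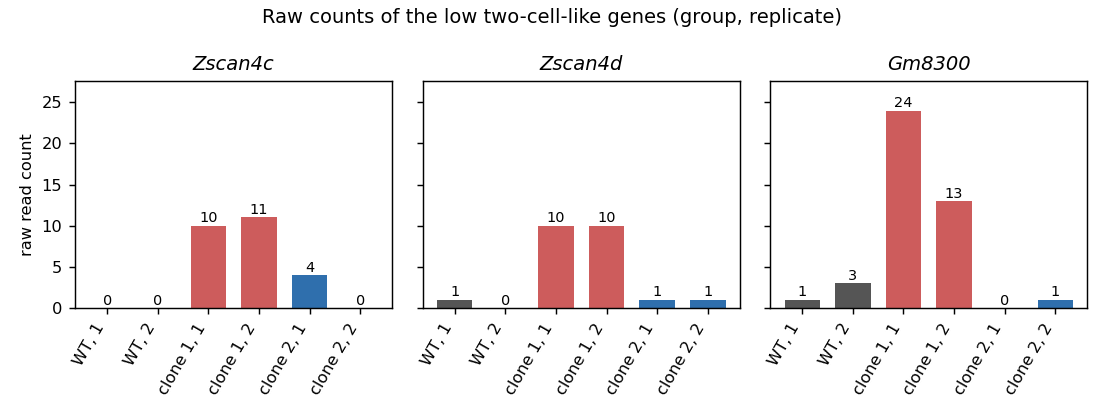
Raw read counts of Zscan4c, Zscan4d and Gm8300 in each of the 6 libraries, named by group and replicate, on a shared axis from 0. Both clone 1 libraries hold 10 to 24 counts a gene, and every other library holds 0 to 4.

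Because copies share reads, the 9 genes of the Zscan4 cluster were also summed, members included. Reads set aside as aligned in several places are not in such sums. The sums were 4 and 1 counts in WT, 61 and 51 for clone 1, and 9 and 5 for clone 2. Clone 1 exceeded WT by a count ratio of 23.1 (9.63 to 72.7) and exceeded clone 2 by 7.64 (4.37 to 14.4), while clone 2 exceeded WT by 3.03 (1.03 to 10.7). These intervals cover counting error and not the spread between libraries. Left out one at a time, a choice made after seeing the data, the libraries of WT moved these ratios most. Clone 1 over WT was 59.1 (10.4 to 2360) without WT replicate 1 and 14.2 (5.38 to 52.8) without WT replicate 2. Clone 2 over WT was 7.74 and 1.85 in the same order, and its interval included 1 without WT replicate 2 (0.582 to 7.73) or clone 2 replicate 1 (0.482 to 9.11). Beyond the members, Zscan4a had 2 and 1, 11 and 9, and 0 and 1 counts in the same order of groups, Zscan4f 0 and 0, 6 and 7, and 1 and 0, and the pseudogene Zscan4-ps2 0 and 0, 11 and 4, and 0 and 0. Zscan4b, whose sequence before the start is shown above, had 1 count in WT replicate 1 and 0 elsewhere.

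The 12 eIF1A-like genes around Gm8300 summed to 10 and 16 counts in WT, 84 and 44 for clone 1, and 12 and 19 for clone 2. Most counts of WT and of clone 2 came from 1 of them, Gm5039, so the ratios of these sums depend largely on it. It had 9 and 8 counts in WT, 8 and 6 for clone 1, and 5 and 13 for clone 2. Gm2016, whose transcript is 87.3% identical to that of Gm8300, had 0 and 0, 16 and 8, and 1 and 0 counts. Gm5662, at 90.7%, had 0 and 1, 14 and 4, and 2 and 1. Clone 1 exceeded WT by a ratio of 5.09 (3.32 to 8.08), and clone 2 stood at 1.29 of WT (0.741 to 2.26). With 1 library left out the ratio of clone 1 to WT ranged from 3.44, without clone 1 replicate 1, to 6.79. Eif1a itself, the ordinary factor, was not called higher in any comparison and fell by 0.32 in clone 2 (adjusted p = 0.0230). The 5 Usp17l genes, deubiquitinases of the same programme, summed to 2 and 1, 39 and 11, and 2 and 1 counts, a clone 1 to WT ratio of 17.2 (5.56 to 86.3). This ratio rested mostly on clone 1 replicate 1: without it the value was 7.45 (1.97 to 41.6), against 27.3 without clone 1 replicate 2 and 26.4 without WT replicate 1.

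**Figure D3:**
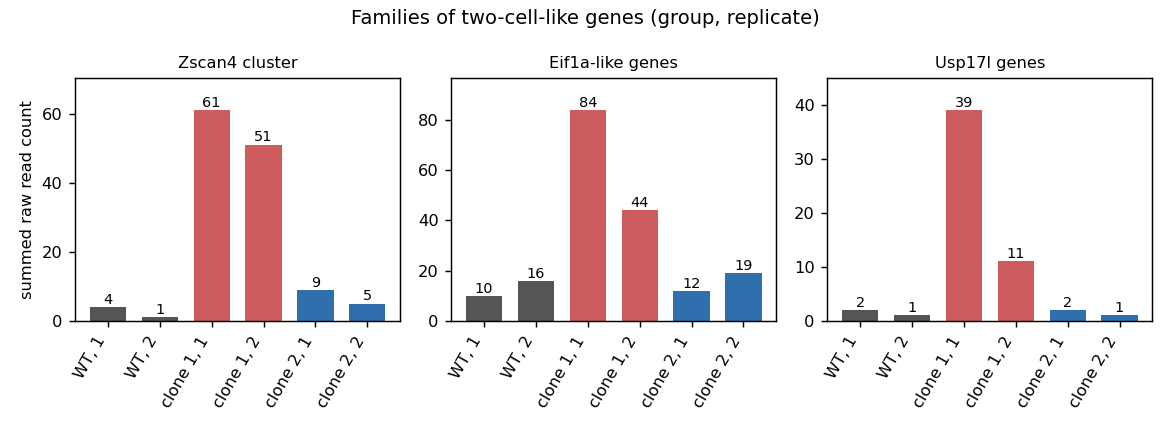
Summed raw read counts of the Zscan4 cluster (9 genes), the eIF1A-like genes (12) and the Usp17l genes (5) in each of the 6 libraries, each on its own axis from 0. The tallest bars are both clone 1 libraries in each family, at 61 and 51, 84 and 44, and 39 and 11 counts.

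Of 28 other genes listed for the 2C-like state, 27 were in the files and 5 had enough counts to be tested. Of these 5, Gm4340, Gm20767 and Gm21761 passed the filter only through clone 1, where they were called higher, so their calls there are no support. The remaining 2 were called higher in each clone and over both. Pramel6 and Pramel7, genes of a leucine-rich repeat family of early embryos, were these 2, with Pramel6 at 14 and 11 counts in WT, 73 and 62 for clone 1, and 84 and 108 for clone 2. Pramel6 rose by 2.47 in clone 1 (adjusted p = 3.65e-05) and 3.04 in clone 2 (2.83e-06), and Pramel7 by 2.22 (0.0257) and 2.96 (0.00333). Gm4340 (1 and 0, 16 and 31, 5 and 6 counts), Gm21761 (2 and 0, 30 and 30, 4 and 4) and Gm20767 (0 and 0, 20 and 15, 0 and 2) were each highest in both clone 1 libraries. Gm20767 is outside the naming rule and was chosen after its values were seen. Clone 2 was below clone 1 for these 3, with adjusted p of 0.0338, 0.00422 and 0.00798. As they passed the filter only through clone 1, those calls are no support either. Tcstv1, Tcstv3 and the Duxbl genes were at 0 counts in every library, and Zfp352 had 1 count in all.

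Summed fibroblast or feeder cell markers also stood higher in clone 1, where the Zscan4 genes did, at 34.8 to 37.7 CPM against 24.7 to 25.6 in WT and 21.7 to 23.8 in clone 2. Most of the sum in every library came from Pdgfrb, which was not called in clone 1, at 0.29 (adjusted p = 0.121). Thy1 and Col1a2 were called higher in clone 1, at 0.94 (0.031) and 4.94 (9.69e-04). Col1a2, at 0 and 1 counts in WT, was also higher in clone 2, at 4.65 (0.00250). Of these 9 markers, 3 to 5 were at 0 in a library, and Lum, Dcn and Postn were at 0 in every library. Their part in the result was not tested. Oocyte markers summed to 11.7 to 15.5 CPM in all groups, nearly all from Zp3, with Oosp1 at 0.

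Dppa3 (chr6:122626410-122630272, plus strand), also called Stella, is a maternal factor that binds UHRF1 and keeps DNA methylation in check. It had 15 and 21 counts (1.16 and 1.55 CPM) in WT, 13 and 7 (1.03 and 0.537) for clone 1, and 37 and 60 (3.12 and 4.75) for clone 2. Both clone 2 libraries were above all others, both clone 1 libraries were the lowest, and no groups overlapped. Dppa3 rose by 1.53 ± 0.40 in clone 2 (adjusted p = 0.0122), and stood at -0.79 ± 0.49 in clone 1 (0.274) and 0.79 ± 0.74 over both (0.580). The difference between clones was 2.32 ± 0.43 (0.00154) and passed in all 13 alternatives, with a highest adjusted p of 0.0351. The rise over WT failed to pass without WT replicate 1 (0.126), WT replicate 2 (0.0573) or clone 2 replicate 2 (0.182).

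Calls among neighbours of Dppa3 on chromosome 6 stand beside 10.1% of all genes called higher and 7.81% lower in clone 2. Of 14 tested genes within 250 kb of Dppa3, 1 was called against WT in clone 2, Foxj2, a forkhead factor, at 0.76 (adjusted p = 0.00850), and it was also higher in clone 1, at 0.81 (0.00444). Gdf3, 16.3 kb away, stood at 0.10 in clone 2 (0.526), and Nanog, 81.1 kb away, at 0.09 (0.461). Clone 2 against clone 1 had 1 call among the 14, Rimklb, at -0.48 (0.00605). In that comparison 6.62% of all genes were called higher and 7.71% lower.

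Among 9 listed genes of DNA methylation control, 0 were called over both clones. In clone 1 there was 1 higher and 1 lower, and in clone 2 there was 1 lower. Dnmt3a, a de novo methyltransferase, had 470 and 588 counts in WT, 1043 and 1015 for clone 1, and 499 and 504 for clone 2, a rise of 1.01 in clone 1 (adjusted p = 5.52e-06). Dnmt3l, its cofactor without catalytic activity, had 1976 and 2085, 1599 and 1622, and 767 and 803 counts, and fell by 0.29 in clone 1 (0.0178) and by 1.26 in clone 2 (2.29e-08). Tet2, a methylcytosine oxidase, was higher in clone 2 than in clone 1 by 0.31 (0.0299). Uhrf1, the protein partner of DPPA3, stood at -0.02 in clone 1 (0.875) and -0.04 in clone 2 (0.779), and Dnmt1 at 0.02 (0.889) and 0.14 (0.198).

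Dppa5a (chr9:78367052-78368177, minus strand), also called Esg1, encodes a small RNA-binding KH-domain protein of pluripotent cells. It was the most abundant of the 8 genes, at 1798 and 1751 CPM in WT, 1516 and 1506 for clone 1, and 1555 and 1579 for clone 2. All libraries labelled knockout were under both WT libraries by a small margin. It fell by 0.23 ± 0.07 in clone 1 (adjusted p = 0.0206), and did not pass in clone 2 at -0.18 ± 0.07 (0.0774) or over both at -0.21 ± 0.07 (0.107). The clones differed by 0.05 ± 0.07 (0.672). The call in clone 1 failed when WT replicate 1 (0.131) or 2 (0.0769), or replicate 1 (0.0527) or 2 (0.0565) of clone 2, was left out, with upper-quartile size factors (0.0640) and in a fit of those 4 libraries alone (0.0695). Clone 2 passed in its own such fit (0.0108) and without clone 1 replicate 1 (0.00883) or replicate 2 (0.00759).

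Dppa5a belongs to a family of KH-domain genes that also holds members of the maternal complex of the oocyte cortex. Of 11 listed genes of that family and complex, Dppa5a included, 6 were tested. Clone 1 had 2 higher and 2 lower, clone 2 had 0 and 2, and over both clones 0 were called. Ooep, a KH-domain gene 10.5 kb from Dppa5a, had 1522 and 1469 counts in WT, 1236 and 1443 for clone 1, and 837 and 981 for clone 2, and fell by 0.61 in clone 2 (adjusted p = 2.70e-04). Tle6, a subunit of the complex, fell in both clones, by 0.60 (0.00534) and 1.52 (2.13e-06). Khdc3 was higher in clone 1 by 1.42 (0.00198), as was Padi6 by 2.82 (0.0210), from 2 and 1 counts in WT to 11 and 11. Padi6 had 2 and 3 counts in clone 2, so it passed the filter on low counts through clone 1. Its call there, among the 2 higher, was fixed in large part by the filter. Nlrp5 had 1 count over all libraries, and Nlrp2 had 0.

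Utf1 (chr7:139943789-139945112, plus strand) encodes a chromatin-bound factor of pluripotent cells that limits Polycomb loading at bivalent genes. It had 190.7 and 192.8 CPM in WT, 86.8 and 134.1 for clone 1, and 48.0 and 59.1 for clone 2. The 3 groups did not overlap, and the clone 1 libraries were far apart. The log2 fold change was -0.80 ± 0.14 in clone 1 (adjusted p = 6.89e-04) and -1.84 ± 0.15 in clone 2 (2.20e-07), and -1.05 ± 0.15 for clone 2 against clone 1 (1.62e-04). These 3 calls held under all 13 alternatives. Over both clones Utf1 fell by 1.22 ± 0.31 (0.0488). That call was lost with DESeq2 (0.114), with upper-quartile size factors (0.0573) and when WT replicate 1 (0.298) or 2 (0.277), replicate 1 of clone 1 (0.0637) or replicate 2 of clone 2 (0.0554) was left out.

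**Figure D4:**
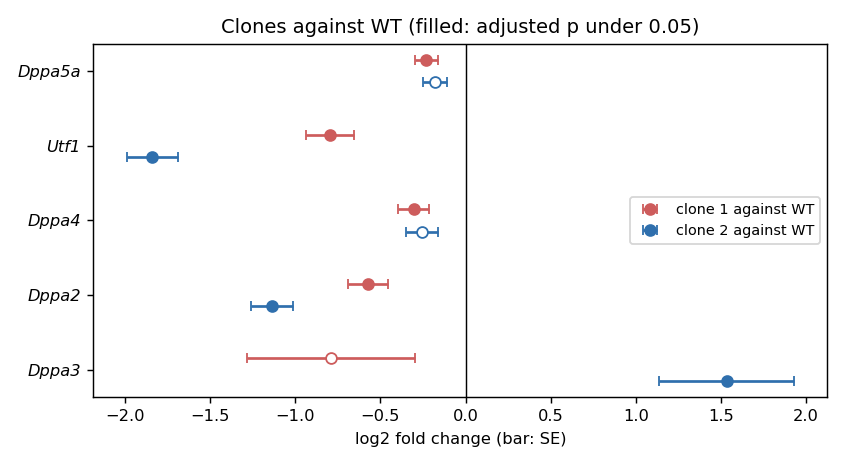
Log2 fold change against WT of the 5 members with the most counts, in clone 1 (red) and clone 2 (blue), with bars for the SE and filled points for an adjusted p under 0.05. Utf1 lies at -0.80 and -1.84 and Dppa2 at -0.57 and -1.14, while Dppa3 is left of 0 in clone 1 and at 1.53 in clone 2.

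Of 8 tested genes within 250 kb of Utf1, 1 was lower in clone 2. This was Kndc1, a guanine nucleotide exchange factor gene 49.1 kb away, at -1.90 (adjusted p = 4.77e-04), with -0.09 in clone 1 (0.844). In clone 1 it was Echs1, an enzyme of fatty acid breakdown, at -0.29 (0.0192). Against clone 1, clone 2 was lower for 2 of the 8 neighbours, where 7.71% of all genes were lower. These were Kndc1 at -1.81 (0.00104) and Adam8 at -1.42 (0.0220). The median of the 8 was -0.12 in clone 1 and -0.38 in clone 2 against WT. Among 7 listed partners and targets of UTF1, 1 was higher and 3 were lower over both clones. Cdkn2a, the locus of the p16 and Arf growth inhibitors, had 44 and 34 counts in WT, 262 and 358 for clone 1, and 347 and 373 for clone 2, a rise of 3.18 (2.06e-04). Myc fell by 1.28 (0.00885). The Polycomb genes Suz12 and Eed fell by 0.60 (0.0121) and 0.34 (0.0327), and Ezh2, the methyltransferase of the same complex, was higher in clone 1 at 0.25 (0.0498) and stood at -0.01 in clone 2 (0.967).

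Since Dppa3 is also read as a marker of primordial germ cells, 9 further genes of these cells were listed. Over both clones 3 were higher and 0 lower, with 5 and 1 in clone 1 and 3 and 0 in clone 2. Dazl, which encodes a germ cell RNA-binding protein, had 34 and 29 counts in WT, 342 and 290 for clone 1, and 234 and 283 for clone 2, a rise of 3.26 (adjusted p = 1.60e-04). Prdm1, the repressor that specifies germ cells, rose by 2.70 (2.78e-04) and Kit, a receptor of germ cells, by 0.79 (0.0493). Prdm14 fell by 0.49 in clone 1 (0.00320) and stood at -0.23 in clone 2 (0.156).

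Of 15 pluripotency markers, 1 was lower over both clones, 5 were lower in clone 1, and 1 was higher and 5 were lower in clone 2. Sall4, a zinc finger factor, fell by 0.93 over both (adjusted p = 4.19e-04). Sox2 fell by 0.32 in clone 1 (0.0115) and 0.28 in clone 2 (0.0293), and Klf2 by 0.52 (0.0130) and 0.54 (0.0124). Markers of differentiated lineages, summed over 12 genes, stood at 83.2 to 83.4 CPM in WT, 60.7 to 71.6 in clone 1 and 59.5 to 61.8 in clone 2, with 0 to 3 genes at 0 in a library. The lower sum in the clones came from Cdx2, a trophectoderm factor outside the naming rule and chosen after its values were seen. Cdx2 had 374 and 302 counts in WT, 29 and 19 for clone 1, and 75 and 44 for clone 2. Of 8 tested lineage markers, 2 were higher and 1 lower in clone 1, and 0 and 2 in clone 2. Cdx2 was among the lower genes in both. Eomes stood at 0.92 (8.14e-04) and Gata4 at 1.43 (0.0159) in clone 1, and T at -1.02 in clone 2 (0.00486). These genes, too, were chosen after their values were seen. Without Cdx2, a sum added after seeing the data, the other 11 genes stood at 54.3 to 61.1 CPM in WT, 58.4 to 70.1 in clone 1 and 53.2 to 58.4 in clone 2.

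The genes most like each abundant member over the 6 libraries were sought among 9759 genes of at least 5 mean CPM, by the root mean square difference of centred log2 CPM. For Utf1 these were Igsf21 (0.0933), Map6 (0.213) and Tle6 (0.218), where the median gene differed by 0.796. Dppa2 was followed most closely by Myl7 (0.0650), Atp6v0a4 (0.0674) and Plcd1 (0.0893), against a median of 0.495. For Dppa4 they were Rpa2, Trim24 and Plrg1, at 0.0203 to 0.0206, and for Dppa5a Adh5, Zpr1 and Brix1, at 0.00868 to 0.0177. The points are libraries of 3 groups and share the differences between them.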

How the data were processed

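RNA was sequenced in 6 libraries of E14 cells, 2 each from WT and from 2 clones labelled Bcat1 knockout. The deposited values are raw counts per gene, in whole numbers and not normalised by the authors. HISAT2 2.1.0, HTSeq 0.9.1, DESeq2 1.18.1 and mm10 are named, per the submitters' processing notes. Neither annotation nor strand setting is given in the sources used here. The 5 HTSeq summary entries of each file stayed out of all tests and library sizes. They held 4.14% to 5.35% (no feature), 6.96% to 9.10% (ambiguous), 6.00% to 7.30% (low alignment quality), 2.44% to 3.09% (not aligned) and 15.6% to 16.6% (several alignments) of the reads. The 8 genes and all gene lists were chosen with earlier results of these data known.

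Tests used edgeR 4.0.16 in R 4.3.3, with filterByExpr (14946 of 26926 genes with any count), TMM, two-sided quasi-likelihood F tests, and a threshold of 0.05 after Benjamini-Hochberg adjustment over all genes tested. Knockout against WT was fitted as 2 genotypes, so that the clones' difference from each other is part of the spread. It treats 4 libraries of 2 clones as independent, which can make p-values too small. The other comparisons came from a fit of 3 groups. The SE of a log2 fold change was derived from its test, as the absolute change over the square root of F. Ratios of low counts carry exact 95% binomial intervals, which cover counting error only. A group at 0 was set at 3 counts over the group. CPM used effective library sizes, and log2 CPM a prior count of 2. Gene positions and lengths come from GENCODE M21 on GRCm38. Within each group the libraries differed by more than sampling noise (chi-square per gene over genes with at least 20 counts), so none was counted as a duplicate.

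All 8 genes are named. From each list, up to 4 called genes with the smallest p over both clones are named, with the 3 most similar genes of each member of at least 5 mean CPM (leaving out members, predicted genes, pseudogenes and ribosomal or small RNA genes), and tested neighbours within 250 kb. The fits were tested on simulated data. The alternatives were each library left out, DESeq2 1.42.0, a change of size factors or of filter, a replicate block, a fit of just the 4 libraries compared, the averaged clone contrasts, and the longest transcript as length. Protein sequences were not used here. Figures were drawn with matplotlib 3.10.9.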

Additional observations from a re-analysis of the deposited data

Results flagged for a closer look

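The effect of the label knockout differed between the clones for 5 of the 8 genes, by the test of clone 2 against clone 1 (edgeR's quasi-likelihood test, adjusted over all genes tested). Of all genes tested, 6.62% were called higher and 7.71% lower in that comparison. Dppa2 had a log2 fold change of -0.56 between the clones, with clone 2 lower in 2 of 2 libraries, and Utf1 one of -1.05. Dppa3 went the other way, at 2.32, with both clone 2 libraries above WT and both clone 1 libraries below it. Zscan4d, at -3.11, and Gm8300, at -4.85, were lower in clone 2. Both passed the filter on low counts only through clone 1, which favours this direction. For these 2 genes the fitted value depends on the prior count, and the counts were 2 against 20 for Zscan4d and 1 against 37 for Gm8300. No library stood apart from the others among the 4 labelled knockout by Dixon's test for any member.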

How the results depend on the processing

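The direction of every member's log2 fold change was kept in each alternative that gave a value. The number of members called was less stable. Over both clones the count of 2 became 1 with DESeq2 or upper-quartile size factors, 5 with the mean of both clone contrasts, and 0 to 2 with 1 library left out. In clone 1 the count of 7 became 2 to 5 with 1 library left out, and was 2 without either WT library. In clone 2 the count of 3 became 5 with only the 4 libraries compared, and 2 to 5 with 1 library left out. Between the clones 5 became 3 with DESeq2, which gave no adjusted p for Zscan4d and Gm8300, and 2 to 4 with 1 library left out, lowest without clone 2 replicate 1. With a replicate block the counts were 0 over both clones, 7 in clone 1, 5 in clone 2 and 5 between clones. Deviations of libraries with the same number correlated at 0.0784, 0.0131 and 0.157 across genes. Over all genes the block gave 4410 calls in clone 1, 3685 in clone 2 and 3007 between clones. Without the block there were 3280, 2674 and 2141. The labels do not say whether libraries of the same number were handled together, and this was not tested.

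Over all genes, the 951 called over both clones became 79 and 99 without WT replicate 1 and 2, 1752 without the filter, 3226 with the mean of both clone contrasts and 646 with the block. The 3280 of clone 1 became 1576 and 1687 without a WT library. The 2674 of clone 2 became 1165 to 4191 with 1 library left out and 4065 with only the 4 libraries compared, and the 2141 between clones 974 or 1006 without a clone 2 library. A filter of 1 CPM in 2 libraries left 6 of the 8 genes tested. Leaving out 1 library lowers the residual degrees of freedom, and with 1 WT library left the lone sample is assumed to vary like the other groups. At 0 to 24 counts a library, depth limits Zscan4c, Zscan4d and Gm8300.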

Other observations

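Dppa1, a further gene of the Dppa name, had 1 count in clone 2 replicate 2 and 0 in the other libraries. Ddx4 and Mael, germ cell genes outside the naming rule and chosen after their values were seen, were higher in clone 1, at 1.14 and 1.40 on the log2 scale, and lower in clone 2 than in clone 1, by -1.39 and -1.97 (adjusted p = 6.97e-04 and 0.00278). Ddx4 had 56 and 51 counts in WT, 112 and 116 for clone 1, and 40 and 43 for clone 2. Mael had 38 and 21, 75 and 77, and 9 and 28. The eIF1A-like gene Gm8332, which shares transcript windows with Gm8300 and was not in the list, had 0 and 1 counts in WT, 12 and 12 for clone 1, and 3 and 0 for clone 2.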
